A study of Mus musculus with 2 samples.

Results

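Mir139 (ENSMUSG00000065446.1) was followed through small-RNA sequencing of left cerebral cortex. The mice were B6CASTF1/J males of 25 days, the F1 hybrid of C57BL/6J and CAST/EiJ. It is 1 gene of the 2202 miRNA genes counted in each library, and it was chosen by its symbol in the GENCODE M21 annotation, with its high level in these libraries already known. Its levels below are therefore a description with no test. The labels give 1 group, with no treatment named, of 2 biological replicates, each a separately numbered male with 1 library, so the sole comparison is replicate 2 against replicate 1. Where p-values are given, they measure the difference between these libraries, in which mouse and library cannot be told apart.

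MicroRNAs are cut from hairpins, first in the nucleus by Drosha and then in the cytoplasm by Dicer, and guide repression of mRNAs that pair with their seed. A miRNA gene in an intron on the strand of its host can be made from the host's transcript. The host here, Pde2a, encodes a phosphodiesterase that breaks down cAMP and cGMP, is stimulated by cGMP and is well expressed in forebrain neurons. In human cells, miR-139-5p is known mainly as a brake on growth signalling and is often low in tumours.

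The hairpin and its arms are shown because every count of Mir139 comes from reads of these 68 bases. The gene lies on the plus strand at mm10 chr7:101475376-101475443, and the RefSeq entry (GRCm38.p6) has the same start and end. In the hairpin the capitals mark the arms, miR-139-5p at bases 7 to 28 and miR-139-3p at bases 43 to 64. In the mature sequences they mark the seed, bases 2 to 8.
Mir139 hairpin: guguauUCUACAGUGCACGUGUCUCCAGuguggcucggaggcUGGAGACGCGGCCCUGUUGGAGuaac
miR-139-5p: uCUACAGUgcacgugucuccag
miR-139-3p: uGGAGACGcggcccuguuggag

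Each arm has 22 bases and starts with U, as do 41.3% of the 1738 mature mouse sequences in the RefSeq table. GC content is 54.5% in miR-139-5p and 68.2% in miR-139-3p, against a median of 52.2% over those sequences. Folding with RNAfold gave a predicted minimum free energy of -35.6 kcal/mol, with 25 base pairs of which 4 are G-U pairs. Within that fold 20 bases of each arm are paired, and 14 bases separate the arms. Per base the predicted energy is -0.52 kcal/mol, against a median of -0.41 over 1005 hairpins, 12.0% of which lie lower.

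Neither seed is shared. No other mature sequence in the table has the same bases 2 to 8 as either arm, and for miR-139-5p this also holds for bases 2 to 7 and for bases 3 to 8. For miR-139-3p, 1 other sequence has the same bases 2 to 7. The genes next to Mir139 in level differ in this respect, as the following mature sequences show, with the seed in capitals: let-7g, let-7b and let-7i carry a single seed, which 13 mature sequences in the table have. The seed of miR-132-3p is shared with 1 other mature sequence in the table, miR-212-3p, and that of miR-127-3p with 0 others.
let-7g-5p: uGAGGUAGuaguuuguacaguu
let-7b-5p: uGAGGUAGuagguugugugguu
let-7i-5p: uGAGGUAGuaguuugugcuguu
miR-127-3p: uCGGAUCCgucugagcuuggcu
miR-132-3p: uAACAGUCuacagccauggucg

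The likeness of a gene to other loci bears on its count here, because reads with several matches in the genome were not given to genes. The longest stretch Mir139 shares with a miRNA gene at another place, on either strand, is 11 bases. The median over the 392 genes that reached 10 counts in both libraries, called tested genes below, is 13 bases. Mirlet7g, Mirlet7b and Mirlet7i share 19 bases each with another locus. Of the tested genes, 92 (23.5%) share 18 or more bases with another miRNA gene, as do 6 of the 20 most abundant. No 18-base piece of either Mir139 arm occurs in any of the 141767 annotated transcripts apart from that of Mir139. Introns and intergenic sequence were not searched.

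The annotation places Mir139 inside Pde2a, on the same strand. Of the 12 Pde2a transcripts, 10 run across the hairpin, all with it in an intron. In the 4 protein-coding ones, Pde2a-201, Pde2a-202, Pde2a-204 and Pde2a-212, it lies in intron 2, which is 29902 bases long. The exon before it ends 23907 bases upstream and the next exon begins 5927 bases downstream. The first Pde2a start is 53.7 kb upstream of Mir139, and the start of Pde2a-204 is 24.9 kb upstream, so each of these coding starts precedes the hairpin. A longer overlapping gene, Gm45837, holds it in intron 3 of its transcript. No Pde2a mRNA was measured in these libraries.

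**Figure D1:**
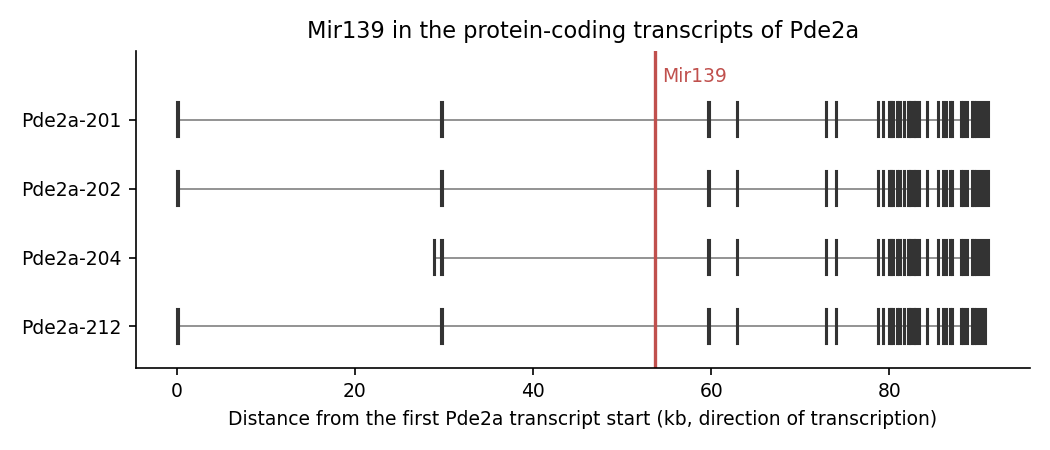
Map of the 4 protein-coding Pde2a transcripts that contain Mir139, with distance in kb from the first transcript start on the x axis, 1 transcript per row, black boxes for exons and grey lines for introns. The red line marks Mir139, 53.7 kb from the first start and inside the long second intron of each transcript, with most exons downstream of it.

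Mir139 had 499624 counts in replicate 2, against 269341 in replicate 1. Over all counts on the genes' own strand, 4447390 in replicate 2 and 2388379 in replicate 1, that is 112341 and 112771 counts per 1000000 (CPM). The mean is 112556 ± 304 CPM (SD, n = 2). Replicate 2 is the deeper library by 1.86-fold, and the level of Mir139 is nearly the same in both. The counts were 11.234% of the total in replicate 2, with an exact 95% interval (Clopper-Pearson) of 11.205 to 11.263%, and 11.277% in replicate 1, with an interval of 11.237 to 11.317%. The reads carry no molecular identifiers and are not independent molecules, so these intervals show the error of counting alone. The files count reads per gene, so the arms of the hairpin cannot be told apart in these values. In whole tissue, a level also cannot tell how many cells hold a miRNA from how much each cell holds.

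The gene ranked first in both libraries, where genes were counted from reads with a single match. In replicate 2 it stood 1.64-fold above the gene ranked next, Mirlet7g, and in replicate 1 it stood 1.501-fold above the same gene. The level was 872 times the median CPM of the tested genes in replicate 2 and 1030.0 times that median in replicate 1. The 671 least abundant of the 736 genes detected in replicate 2 held fewer counts together than Mir139 alone, as did the 578 least abundant of 638 in replicate 1.

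**Figure D2:**
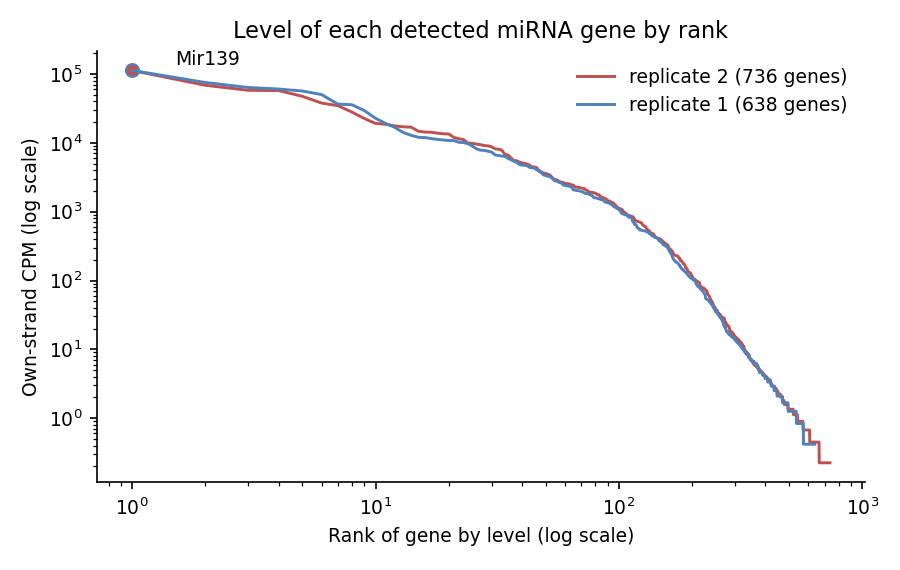
Own-strand CPM of every detected gene against its rank, both on log scales, with a line for each library (736 genes in replicate 2 and 638 in replicate 1). The circles at rank 1 are Mir139, at 112341 CPM in replicate 2, against 112771 in replicate 1, and the lines fall away from it along nearly the same course.

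Of the 5 genes that follow it in mean CPM, none reached its level in either library. Mirlet7g, in an intron of Wdr82 and a member of the let-7 family that restrains proliferation, had 68463.5 CPM in replicate 2, against 75123.8 in replicate 1. Its libraries do not overlap those of Mir139 above it or of Mirlet7b below it. Mirlet7b had 57309.8 and 63616.4 CPM in replicates 2 and 1. Mir127, an imprinted miRNA antisense to Rtl1, had 57895.8 and 50223.6 CPM, and Mirlet7i had 47413.9 and 56551.7 CPM. Mir132, whose transcription follows neuronal activity, had 37793 and 60392 CPM. From Mirlet7b to Mir132 each gene overlaps the next in the order, so the order among these 4 is not separated by their spread.

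Levels per base of annotated precursor give the same first place. Mir139 stood at 1652 CPM per base in replicate 2 and 1658 in replicate 1, from a precursor of 68 bases. The next gene per base was Mir127 in replicate 2, at 827 CPM per base, and Mir132 in replicate 1, at 915 CPM per base. Over the mean of the libraries, Mirlet7g was second per base, at 816 CPM per base against 1655 for Mir139.

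**Figure D3:**
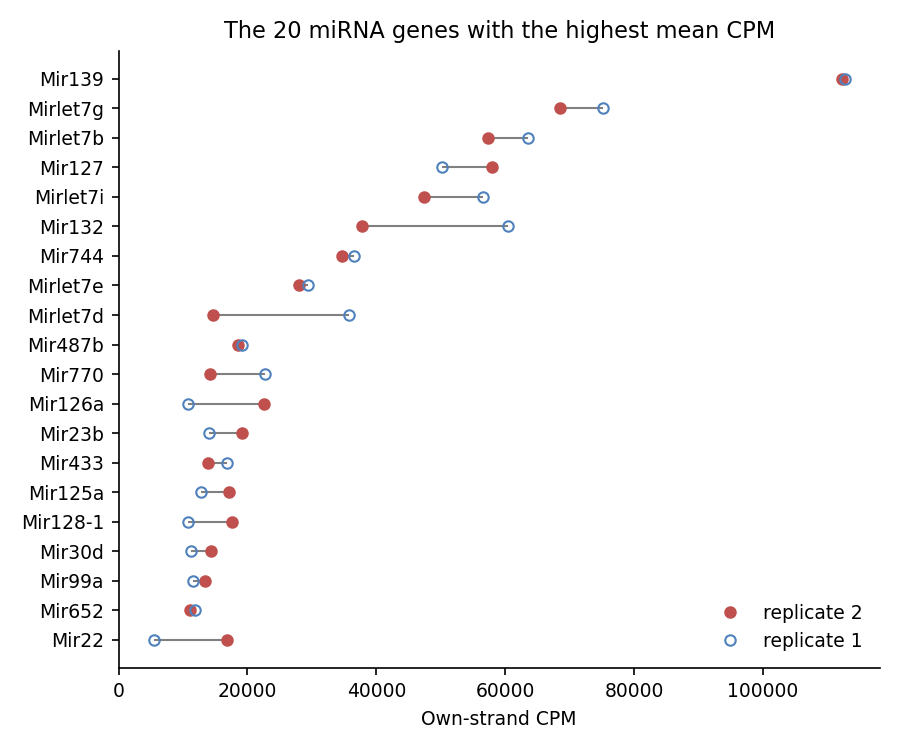
Own-strand CPM for the 20 genes with the highest mean, 1 gene per row, with a filled point for replicate 2, an open point for replicate 1 and a grey line between them. Mir139 lies apart on the right with its points almost on top of each other, while Mir132, Mirlet7d and Mir22 are spread widely.

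Ratios of Mir139 to another gene within a library need no total. Mir139 had 1.64 counts for each Mirlet7g count in replicate 2 and 1.501 in replicate 1. Against Mirlet7b the ratio was 1.960 in replicate 2 and 1.77 in replicate 1, and against Mir744, in an intron of the kinase gene Map2k4, it was 3.24 and 3.09. The ratio to Mir127 went the other way, at 1.94 in replicate 2 and 2.25 in replicate 1. Among the next 10 genes the ratio changed most, as a fold, for Mirlet7d, at 7.64 in replicate 2 and 3.16 in replicate 1. Mir770, at 7.89 and 4.96, and Mir132, at 2.97 and 1.87, followed with nearly the same fold. Relative to 9 of the next 10 genes Mir139 was thus higher in replicate 2, and relative to Mir127 it was lower, values given without a test.

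The difference between the libraries was small when each was scaled to its own-strand total. The log2 ratio of replicate 2 over replicate 1 was -0.0055, with a counting SE of 0.0034. In a two-sided exact binomial test, conditional on the totals, its p after Benjamini-Hochberg adjustment over the 392 tested genes was 0.166. There 223 genes, 56.9% of those tested, passed an adjusted p of 0.05. Of the 242 genes that reached 100 counts in both libraries, 80.2% passed. Among the 20 most abundant genes 19 passed, 8 higher and 11 lower in replicate 2, and Mir139 was the exception. Its result depends on the scaling: with edgeR's TMM factors the log2 ratio of Mir139 was -0.068, and with DESeq2's size factors it was -0.069. Under both it passed the test, as did 55.9% of the tested genes and all 20 of the most abundant. Over the totals of the column counted without regard to strand the log2 ratio was 0.019, which passed as well, as did 56.1% of the genes tested that way. The count of Mir139 is the same in that column, and its totals are smaller, at 4067247 and 2221800 counts in replicates 2 and 1, because 380286 and 166659 reads there are ambiguous and go to no gene, against 0 on the own strand. In edgeR's exact test 0.765% of the genes passed. Its dispersion comes from the same pair of libraries, so that Mir139 did not pass there says nothing of its stability.

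The spread of other genes puts that value in scale. Log2 ratios had an SD of 0.56 over those 242 genes, and the median size of the log2 ratio over the tested genes was 0.33. The coefficient of variation between the libraries (SD over mean, 2 values) was 0.27% for Mir139 over own-strand totals. Over the 20 most abundant genes its median was 13.1%, and the next lowest value was 2.04%, for Mir487b, on the same scale. The coefficient of Mir139 depends on the scale: it was 0.534% over mapped reads with a single match, 3.34% with TMM, 3.40% with DESeq2 scaling, 6.48% over all mapped reads and 6.20% over all reads. Among the 20 most abundant genes it was the lowest with own-strand totals, single-match reads, TMM and DESeq2 scaling, but ranked 3 from the lowest over all mapped reads and 8 over all reads. Only 4 tested genes had a log2 ratio nearer to 0 than Mir139 with totals as scaling, against 42 with TMM or DESeq2 scaling. The median log2 ratio of all tested genes was 0.060 with totals and 0.0010 with TMM, so Mir139 lay slightly below the typical gene on either scale.

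**Figure D4:**
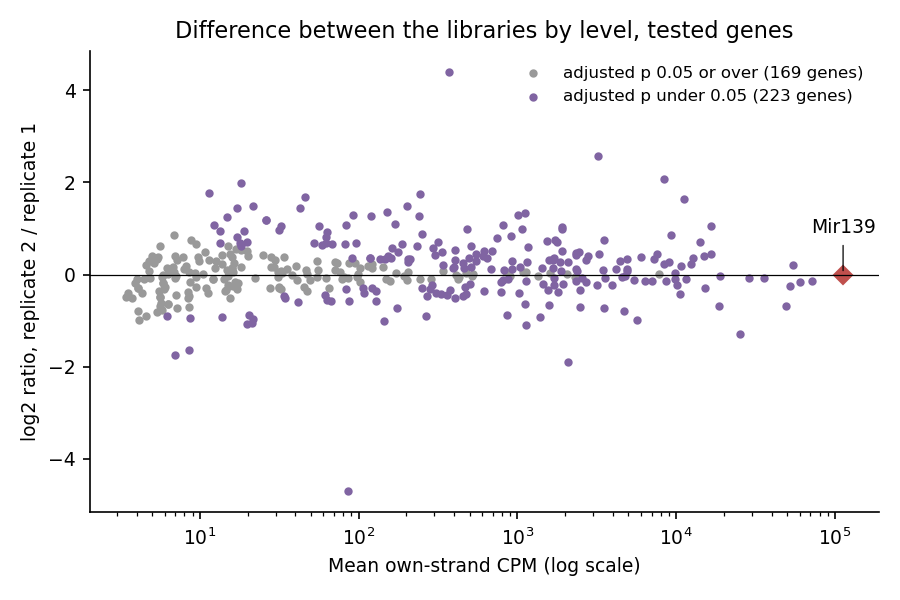
Log2 ratio of replicate 2 over replicate 1 against mean own-strand CPM (log scale) for the 392 tested genes, with purple points for the 223 past an adjusted p of 0.05 and grey points for the other 169. Mir139, the diamond at the far right, lies at -0.0055, while genes of lower level scatter up to several log2 units either way.

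The choice of total moved the share of Mir139 more than the libraries did. Over mapped reads with a single match, whether in a gene or not, it held 9.59% in replicate 2 and 9.66% in replicate 1. Over all mapped reads it held 4.53% in replicate 2 (exact interval 4.518 to 4.543%), against 4.97% in replicate 1 (4.947 to 4.984%), a ratio of 0.912. Reads with several matches were 52.8% of the mapped reads in replicate 2 and 48.6% in replicate 1. Over all reads, including those that did not map (18.2% in replicate 2 and 31.6% in replicate 1), it held 3.71% in replicate 2 and 3.39% in replicate 1, a ratio of 1.09. The order of the libraries thus differs between these totals, and their part in the closeness of the CPM values was not tested.

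**Figure D5:**
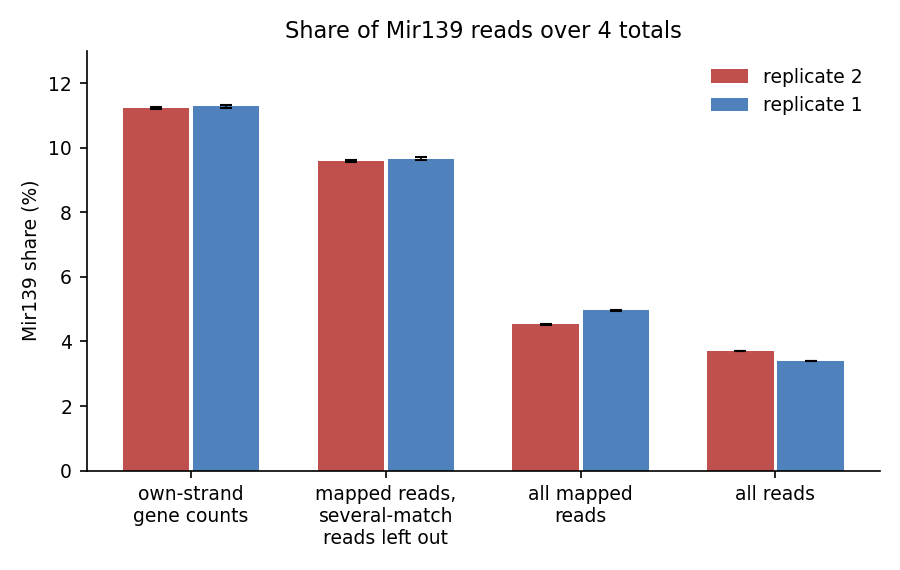
Share of Mir139 in percent over 4 totals, with a red bar for replicate 2 and a blue bar for replicate 1, and error bars for the exact 95% interval of counting. Shares run from over 11% of own-strand gene counts down to 3.71% and 3.39% of all reads, and replicate 2 is below replicate 1 in the first 3 totals and above it in the last.

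All counts of Mir139 lay on its own strand. The opposite strand had 0 counts in both libraries, which allows a share of up to 0.0006% of the own-strand count in replicate 2 and 0.00111% in replicate 1. Over all gene rows the opposite strand held 380429 counts on 68 genes in replicate 2 and 166739 on 64 genes in replicate 1. Nearly as many reads, 380286 and 166659, were ambiguous without regard to strand. Such reads lie where genes are annotated on both strands, and appear to count on the own strand of 1 gene and opposite the other. A lack of opposite-strand counts is not particular to Mir139: in each library 19 of the 20 most abundant genes had 0 counts there. The count of Mir139 without regard to strand equals its own-strand count in each library.

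By position Mir139 belongs to the 738 miRNA genes that lie in an intron of a protein-coding gene on the strand of that gene, and in no exon of that strand. These genes held 40.6% of the counts in replicate 2 and 38.8% in replicate 1. Mir139 alone supplied 27.7% of that in replicate 2 and 29.0% in replicate 1. Without Mir139 the class held 29.3% of the counts in replicate 2 and 27.6% in replicate 1. Counts were found for 349 of the 738 (47.3%), against 34.6% of all 2202 genes. Of the 20 most abundant genes 7 are in the class, close to its part of all genes (738 of 2202). The class is not high by its median: over its 156 tested genes that was 81.9 CPM, against 121 CPM over all tested genes. After Mir139 and Mirlet7g its most abundant members were Mir744 (35575 ± 1297 CPM), Mirlet7e in Spaca6 (28648 ± 999.97 CPM), Mir23b in 2010111I01Rik (16619 ± 3566 CPM) and Mir128-1 in R3hdm1 (14204 ± 4811 CPM; SD, n = 2 each).

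Other miRNA genes in phosphodiesterase introns had low levels or no counts. A lack of counts is common, as only 34.6% of all 2202 miRNA genes had a count, so these few genes show no trait of such introns. Pde4d, which encodes a cAMP-specific phosphodiesterase, holds Mir582 and Mir1904, and Pde1c, which encodes a calmodulin-dependent one, holds Gm44413. Mir582 had 97 counts in replicate 2 and 55 in replicate 1, or 21.8 and 23.0 CPM. Mir1904 and Gm44413 had 0 counts in both libraries, where 3 counts would be 0.675 CPM in replicate 2 but 1.26 in replicate 1.

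Mir139 has no close neighbour among annotated miRNA genes. The nearest upstream, Mir3102 in an exon of Arhgef17, ends 592966 bases away on the other strand, and had 530 CPM in replicate 2, against 523 in replicate 1. The nearest downstream, Gm22655 in an intron of Anapc15, begins 405740 bases away and had 0 counts. Of the 153 miRNA genes on chromosome 7, 59 had a count. Mir139 supplied 84.9% of their counts in replicate 2 and 86.4% in replicate 1, and was 10.5-fold above the next of them, Mir330 (10770 ± 983 CPM; SD, n = 2).

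The genes most like Mir139 in the difference between libraries were sought among those same 242 genes. With 2 libraries the measure of likeness was the gap between log2 ratios. Mir543 was closest, with 411 CPM in replicate 2, against 413 in replicate 1, a gap of 0.0024. It was followed by Mir491 in Focad, Mir674, Mir323 and Mir664 in Rab3gap2, with gaps of 0.0094 to 0.025. Of these Mir674 had the highest level, at 7854 CPM in replicate 2, against 7807 in replicate 1. Mir323 came next, at 2071 CPM in replicate 2 and 2058 in replicate 1. The counting SE of the log2 ratio was larger than the gap for 4 of these genes, and for Mir674 it was 0.013 against a gap of 0.014, so likeness over 2 libraries orders them loosely.

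Markers of cortical cell types were read beside Mir139. Of 21 symbols listed as neuronal, 18 were in the files, all 18 had a count, and they summed to 9.31% of the counts in replicate 2 and 10.8% in replicate 1. Of the 18, 15 were tested genes. The list is led by Mir132, which had 37793 of its 93110 CPM in replicate 2 and 60392 of 107892 in replicate 1. Without Mir132 the other neuronal genes together were higher in replicate 2. They also differ in direction: Mir433 had 13795 and 16764 CPM in replicates 2 and 1, and Mir128-1 had 17606 and 10802. Mir124a-1, Mir124a-2 and Mir124a-3 had only 9, 1 and 8 counts in replicate 2, and 9, 0 and 1 in replicate 1. Reads with several matches were given to no gene, so reads of markers with several copies can be missing from the sum. Mir139 alone had 1.21 times that sum in replicate 2 and 1.05 times in replicate 1. It exceeded the sum of the 6 astrocyte genes (4.76% and 3.30%, led by Mir23b and Mir29a) by 2.36-fold in replicate 2 and 3.42-fold in replicate 1. Endothelial and mural genes, led by Mir126a and Mir143, held 2.801% in replicate 2 and 1.68% in replicate 1. Of these, Mir126a was higher in replicate 2 (22504 against 10782 CPM) and Mir143 was lower there (5238 against 5660 CPM). Oligodendrocyte genes (Mir219a-2 and Mir338 first) held 0.356% and 0.273%, and genes of microglia and white blood cells (Mir150 and Mir146) held 0.249% and 0.231%. Mir219a-2 had 2210 and 1345 CPM in replicates 2 and 1, but Mir338 had 1341 and 1373. Choroid plexus genes (Mir204 and Mir34c) held 0.1002% and 0.0868%, red-cell genes (Mir451a and Mir486) 0.0144% and 0.0134%, and liver, muscle and gut genes (Mir122 and Mir206) 0.00969% and 0.00779%, in replicates 2 and 1. Mir204 had 718 and 507 CPM in that order, but Mir34c had 228 and 312. Both named red-cell genes go against their sum, Mir451a at 83.0 and 87.9 CPM and Mir486 at 24.7 and 30.6 CPM. Listed genes with no count were Mir219b, Mir219c, Mir126b, Mir145b, Mir142b, Mir133a-1, Mir133a-2, Mir133b and Mir1a-1. The part of any cell type in the level of Mir139 was not tested.

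Seed matches show where a miRNA with this sequence could pair, though no mRNA was measured. The match to bases 2 to 8 of miR-139-5p, ACTGTAG on the transcript's strand, occurs in the longest annotated 3′ UTR of 2312 of 20996 protein-coding genes (11.01%). The median over the 1398 different seeds in the table is 10.4%. With an A after it (ACTGTAGA) it occurs in 781 genes (3.72%). The match to miR-139-3p, CGTCTCC, occurs in 663 genes (3.16%). Of 5 genes reported as targets of miR-139-5p in human cells, Fos, Igf1r, Met and Notch1 have a match in their mouse 3′ UTR. Those 3′ UTRs have 815, 7267, 2157 and 1628 bases in that order, against a median of 962 over the 20996 genes. A longer 3′ UTR has more places for a match, and an excess over the 11.01% was not tested. Rock2 has no match to bases 2 to 8 in its annotated 3′ UTR of 3182 bases, and shorter matches were not searched. Their sites are shown with the match in capitals, from GENCODE M21 transcripts. Igf1r, the receptor of insulin-like growth factor, has 2 matches, and the printed one carries the A.
Fos: tatatccatgtACTGTAGtcctt
Igf1r: ctgttttaatcACTGTAGAaaagc
Met: acacataaggaACTGTAGcccag
Notch1: ctacatgcaaaACTGTAGgtaat
Fos encodes an activity-induced transcription factor, Met the receptor of hepatocyte growth factor and Notch1 a receptor that holds progenitors undifferentiated. A match is a description of letters and not evidence of pairing in this tissue.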

How the data were processed

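Small RNAs from total RNA of the left cortex were sequenced, 1 library per mouse. Per the readme files, the authors made the deposited counts, unnormalized numbers of reads for each gene, on mm10 with GENCODE M21. Aligner and counter: not given in the sources used here. From the values, the 3 columns appear to count reads without regard to strand (a read where genes lie on both strands is then ambiguous), on the strand of the gene and on the other strand, and the second was used. Totals and tests leave out 4 rows that stand for no gene: unmapped reads (18.2% of reads in replicate 2 and 31.6% in replicate 1), reads with several matches, in no feature (6.91% and 7.36% of mapped reads) and ambiguous. The reference is that of C57BL/6J; mismatch of CAST/EiJ reads was not tested.

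Mir139, the lists and the tests were chosen with earlier results of these data known. Log2 ratios used CPM with a pseudocount of 1, and genes that reached 10 counts in both libraries entered the exact binomial test. That test was tried on simulated data with counting error alone, so its error rate under variation between mice was not tested. With 1 group, edgeR's quasi-likelihood test has no contrast. The alternatives used TMM factors and the exact test of edgeR 4.0.16 (R 4.3.3) with the common dispersion of the pair, and size factors of DESeq2 1.42.0. Named genes are Mir139, its 5 followers in mean CPM, its neighbours on chromosome 7, the 5 closest in log2 ratio, the 5 most abundant intronic genes after it and the 2 most abundant of each marker list. Mir770, Mirlet7d, Mir22, Mir487b, Mir330, the genes in phosphodiesterase introns and the target genes were added afterwards. Sequences come from RefSeq (GRCm38.p6), where 968 of the 2202 gene symbols have a hairpin, and GENCODE M21. RNAfold 2.7.2, Python 3.11.15, NumPy 2.4.6, pandas 2.3.3, SciPy 1.17.1 and matplotlib 3.10.9 were used.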

Additional observations from a re-analysis of the deposited data

How the results depend on the processing

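Mir139 ranked first under every alternative run: per base, counted without regard to strand and in each library alone. The single libraries repeat ranks already given, and the count of Mir139 is the same without regard to strand. No alternative gave reads with several matches to genes. Mir139 was thus first among genes counted from single-match reads, and its place with the other reads included was not tested. Its mean of 112556 CPM moved to 122034 without regard to strand (where the total leaves out ambiguous reads), 117424 without numbered copies in the total, 96263 over mapped reads with a single match, 47480 over all mapped reads, 35499 over all reads, and 186758 without the other 9 of the 10 most abundant genes. In the libraries alone it was 112341 to 112771. The log2 ratio of -0.0055 passed the test at -0.068 with TMM (adjusted p 9.7e-86, edgeR factors) and -0.069 with DESeq2 scaling, and reversed to 0.019 and passed without regard to strand. Adjusted p-values over these alternatives ran from 1.7e-88 to 1 (edgeR's exact test), and in the other 5 alternatives the side of the threshold did not change. Among those 5, the smaller pseudocount does not enter the test, and the other count filters change only the adjustment over genes. The exact test of edgeR, also among them, says nothing of stability, as its dispersion comes from the same pair of libraries. Genes called between libraries numbered 223 (134 higher), 219 with TMM or DESeq2 scaling (120 higher) and 3 in edgeR's exact test. No paired analysis was possible because there is 1 group.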
